A study of Mus musculus with 6 samples.

Results

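Heat shock proteins, their J-domain partners and the heat shock factors were examined in dorsal skin of *Bmal1*-/- and *Bmal1*+/- mice. The members were all probe sets whose gene symbol in the platform annotation begins with Hspa, Hspb, Hspd, Hspe, Hsph, Hsp90, Dnaja, Dnajb, Dnajc or Hsf and goes on with a number. The rule found 108 of the 23410 probe sets that carry at least 1 gene symbol, and used no measured value. Of these, 98 name 1 gene and 10 name several, and the 98 cover 75 genes, each represented below by its probe set of highest mean intensity. *Hsp90ab1* and *Hsf1* were not analysed here, because no probe set is named for them in the annotation used.

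The skin came from 3 *Bmal1*-/- mice, which lack the clock transcription factor BMAL1 in the whole body, and from 3 littermate *Bmal1*+/- mice, which keep 1 working copy of the gene. All were on the C57BL/6J background and were taken at postnatal day 22, when the hair follicles rest in telogen, with 1 Affymetrix Mouse Gene 1.0 ST array per mouse. The 3 *Bmal1*-/- mice were female, whereas in *Bmal1*+/- mice replicate 1 was male and the others female, and 1 label of that male gives day 23. No wild type mouse was measured, so both genotypes carry a mutant *Bmal1* allele. RNA was made from whole skin, in which fewer cells of a type and less RNA per cell cannot be told apart.

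Heat shock proteins are chaperones that bind unfolded or damaged proteins and help them fold, stay soluble or be degraded. HSP70 proteins work in cycles of ATP hydrolysis that J-domain proteins start, HSP110 proteins release the ADP, HSP90 finishes the folding of kinases and hormone receptors, the HSP60 and HSP10 chaperonin folds proteins inside mitochondria, and small heat shock proteins hold unfolding proteins without ATP. Heat shock factors bind heat shock elements in the promoters of many of these genes, and BMAL1 with its partner CLOCK binds E-boxes. In skin, HSP27, the product of *Hspb1*, is known from the differentiating layers of the epidermis.

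Intensities were deposited on a linear scale, and their median per array ran between 219 and 234 in *Bmal1*-/- skin and between 222 and 236 in *Bmal1*+/- skin. The clock check separated the genotypes: *Nr1d1*, a direct BMAL1 target, had 204, 145 and 237 in *Bmal1*-/- skin, against 1893, 1879.7 and 1561 in *Bmal1*+/- skin. *Bmal1* itself, annotated as *Arntl*, had 569, 609.8 and 664 in *Bmal1*-/- skin, against 325, 365 and 355 in *Bmal1*+/- skin. The position of these probes against the deletion is not known here, so the targeted gene does not check the labels. All 7 keratinocyte and all 6 fibroblast markers were measured. The 12 striated muscle markers were measured too, with summed intensities of 79989 to 91802 in *Bmal1*-/- skin and 78188 to 103004 in *Bmal1*+/- skin.

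No member passed the threshold in either direction. The test was limma's moderated test on log2(intensity + 16), *Bmal1*-/- minus *Bmal1*+/-, with Benjamini-Hochberg adjustment over all 23410 probe sets, and the call threshold was an adjusted p of 0.05. It called 0 of 108 members, against 0.231% of all probe sets (0.0982% higher, which is 23, and 0.132% lower, which is 31), and the smallest adjusted p among members was 0.091, for *Hspb1*. At an unadjusted p under 0.05, 4 members passed, which is 3.70% against 8.77% of all probe sets. Of these, 3 were higher (4.17% of all probe sets were) and 1 was lower (4.6% of all). Under 0.001, 2 members were higher, both of *Hspb1*, and none lower, against 0.649% of all probe sets (0.252% higher and 0.397% lower). The Cyber-T type test, which borrows the spread of probe sets of like intensity, called 1 member (*Hspb1*, higher) and 1.17% of all probe sets, with 0.41% of all being higher. The 3 values of one genotype lay entirely above or below those of the other in 13 members, against 14.7% of all probe sets. They lay above in 4 members, against 6.99% of all, and below in 9, against 7.68% of all.

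The members varied little. Their log2 fold changes ran between -0.24 and 0.46, with 54 above and 54 below 0, and their median was 0.0017 over the 108 probe sets, against 0.014 over all probe sets tested. Some genes count several times here, such as *Dnajc13* with 15 probe sets, 12 of them below 0. With 1 probe set per gene, 42 of the 75 genes lay above and 33 below 0, with a median of 0.013. The median size of the log2 fold change was 0.057 for members and 0.079 for all probe sets. The 95% interval of the fold change lay inside a 1.25-fold change in either direction for 83 of 108 members (76.9%), against 54.9% of all probe sets, and over genes for 54 of 75. These shares also depend on the width of the intervals. The median SE was 0.074 for members and 0.096 for all probe sets, and the probe sets were not matched for intensity.

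**Figure D1:**
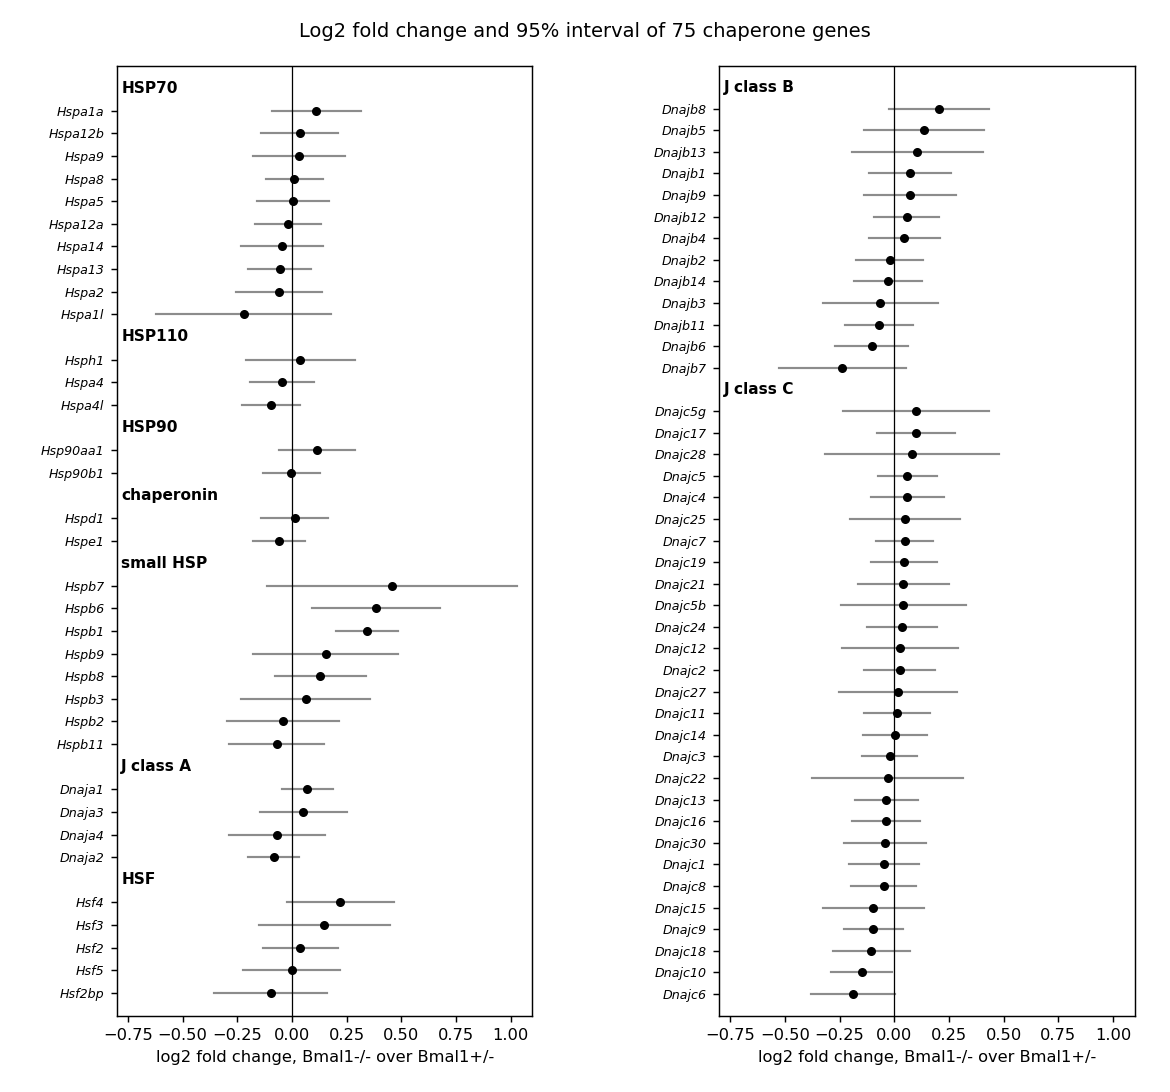
Log2 fold change of *Bmal1*-/- over *Bmal1*+/- skin for the 75 member genes, heat shock factors included, 1 probe set per gene, grouped by class, with the 95% interval of limma's fit as a bar (n = 3 mice each). The intervals of *Hspb1*, *Hspb6* and *Dnajc10* lie on one side of 0, and no gene passed the adjusted threshold.

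Among the small heat shock proteins, *Hspb1* had the smallest p of all members. *Hspb1*, which encodes the actin-protecting chaperone HSP27, had intensities of 3462, 3209 and 3246 in *Bmal1*-/- skin, against 2421, 2658 and 2731 in *Bmal1*+/- skin. All 3 *Bmal1*-/- mice lay above all 3 *Bmal1*+/- mice. The mean was 3306 ± 137 in *Bmal1*-/- skin and 2603 ± 162 in *Bmal1*+/- skin (SD, n = 3 each), and limma gave a log2 fold change of 0.34 (SE 0.063, 95% interval 0.20 to 0.49, 1.27-fold) with an adjusted p of 0.091. That p ran between 0.028, with the Cyber-T type test, and 0.27 over the alternative settings. A second probe set named for *Hspb1* had 3133 ± 132 in *Bmal1*-/- skin and 2483 ± 177 in *Bmal1*+/- skin, with a log2 fold change of 0.34 (SE 0.066) and an adjusted p of 0.12 in limma. The 2 probe sets followed each other across the 6 mice (r = 0.999), so they are not separate evidence. Of the 7 keratinocyte markers, *Lor*, which encodes loricrin of the outermost layers, had 7013, 6942 and 6796 in *Bmal1*-/- skin, against 5886, 5972 and 6621 in *Bmal1*+/- skin, a log2 fold change of 0.17 (adjusted p 0.45 in limma). The other 6 lay below 0, and none was called. The 7 markers summed to 49438 to 55045 in *Bmal1*-/- skin and 52148 to 57583 in *Bmal1*+/- skin, none was at 0, and their part in the *Hspb1* values was not tested.

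The promoter of *Hspb1* is shown because this gene had the smallest p, beside that of *Hspa1a*, the textbook heat-inducible HSP70, and that of *Hspe1*, which holds the only printed element of 3 or more units. Each sequence is the 250 bases before a RefSeq start, on the strand of the gene (GRCm38.p6). Capitals mark pairs of inverted heat shock units in GAANNTTC or TTCNNGAA and longer runs of them.
Hspb1: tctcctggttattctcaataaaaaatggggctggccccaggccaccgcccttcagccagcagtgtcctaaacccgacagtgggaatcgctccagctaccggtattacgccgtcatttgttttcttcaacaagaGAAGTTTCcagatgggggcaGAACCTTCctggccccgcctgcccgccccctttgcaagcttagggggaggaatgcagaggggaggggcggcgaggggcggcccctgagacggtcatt
Hspa1a: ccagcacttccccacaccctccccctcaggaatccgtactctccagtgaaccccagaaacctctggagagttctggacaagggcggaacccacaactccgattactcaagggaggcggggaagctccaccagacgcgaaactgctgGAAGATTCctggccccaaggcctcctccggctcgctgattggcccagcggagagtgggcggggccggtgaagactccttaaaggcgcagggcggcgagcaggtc
Hspe1: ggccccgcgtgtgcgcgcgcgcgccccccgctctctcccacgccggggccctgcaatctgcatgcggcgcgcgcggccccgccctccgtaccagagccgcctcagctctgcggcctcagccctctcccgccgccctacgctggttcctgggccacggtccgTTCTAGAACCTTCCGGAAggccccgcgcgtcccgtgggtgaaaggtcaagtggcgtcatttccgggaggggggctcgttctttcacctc
The *Hspb1* stretch lies at chr5:135887669-135887918 on the plus strand, with GAAGTTTC at bases -117 to -110 and GAACCTTC at -97 to -90, counted back from the start. The *Hspa1a* stretch lies at chr17:34972157-34972406 on the minus strand, with GAAGATTC at -104 to -97. The *Hspe1* stretch lies at chr1:55087898-55088147 on the plus strand. Its run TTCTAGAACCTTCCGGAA at -89 to -72 holds 2 overlapping matches to the element of 3 units, and *Hspd1*, transcribed the other way, shares it.

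*Hspb6* and *Hspb7* measured higher on average, with a wide spread. *Hspb6*, which encodes HSP20 of smooth and striated muscle, had 4286, 3506 and 3496 in *Bmal1*-/- skin, against 2350.4, 3464 and 2886 in *Bmal1*+/- skin. The genotypes did not overlap, but the lowest *Bmal1*-/- mouse lay just above *Bmal1*+/- replicate 2. The log2 fold change was 0.38 (SE 0.13, 95% interval 0.091 to 0.68), with an adjusted p of 0.43 in limma. It was 0.24 without *Bmal1*+/- replicate 1, the male, and reached 0.52 in another fit that left out 1 mouse. *Hspb7*, which encodes a heart and muscle chaperone, had 886, 477 and 717 in *Bmal1*-/- skin, against 324, 573 and 614 in *Bmal1*+/- skin. These values overlapped, and *Hspb7* had the largest spread within a genotype of all 75 genes, an SD of 0.47 on the log2 scale. Its log2 fold change of 0.46 had an interval of -0.11 to 1.03 and an adjusted p of 0.65 in limma. It was 0.18 without *Bmal1*+/- replicate 1, 0.26 without *Bmal1*-/- replicate 1 and 0.70 without *Bmal1*-/- replicate 2.

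**Figure D2:**
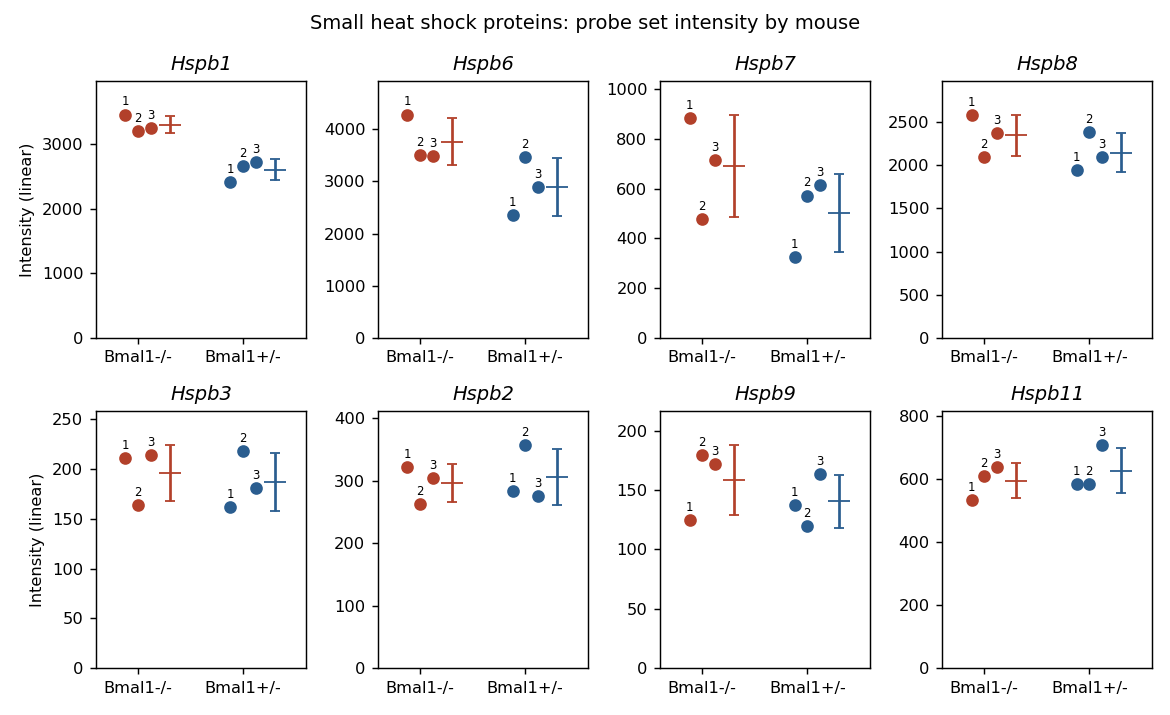
Probe set intensity (linear scale) of the 8 genes classed by symbol as small heat shock proteins, *Hspb11* among them, in each mouse, with *Bmal1*-/- left of *Bmal1*+/-, numbers giving the replicate, and the mean and SD beside the points (n = 3 each). *Hspb1* and *Hspb6* are the only panels in which the genotypes do not overlap, and *Bmal1*+/- replicate 1 is lowest for *Hspb1*, *Hspb3*, *Hspb6*, *Hspb7* and *Hspb8*.

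The other small heat shock proteins overlapped between genotypes. *Hspb8*, whose product works with BAG3 in selective autophagy, had 2579.7, 2100.4 and 2371 in *Bmal1*-/- skin, against 1946, 2389 and 2102 in *Bmal1*+/- skin, a log2 fold change of 0.13 (adjusted p 0.72 in limma). *Hspb9*, known from testis, gave 0.15, *Hspb3* gave 0.064, and *Hspb2*, a partner of HSPB3 in muscle, gave -0.040 on the log2 scale. *Hspb11*, which despite its symbol encodes an intraflagellar transport protein, gave -0.070. The class was set by symbol and so counts *Hspb11*. In all, 6 of its 8 log2 fold changes were above 0 and none was called, with a median of 0.14 against 0.014 over all probe sets tested.

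The male *Bmal1*+/- mouse stood lowest in this class. The mean deviation of the 8 genes from their average over the 6 mice was 0.16, -0.029 and 0.14 in *Bmal1*-/- replicates 1 to 3, against -0.27, 0.017 and -0.012 in *Bmal1*+/- replicates 1 to 3, on the log2 scale. Several of these genes are known from muscle. The 12 striated muscle markers had a median log2 fold change of -0.028 and none was called, and the male *Bmal1*+/- mouse had the lowest and *Bmal1*+/- replicate 2 the highest summed intensity. The 5 smooth muscle markers summed to 9739 to 10344 in *Bmal1*-/- skin and 9304 to 10923 in *Bmal1*+/- skin, with a median log2 fold change of -0.055 and none called. No muscle marker was at 0, and the part of muscle in the small heat shock protein values was not tested. Only 1 mouse was male, and it alone has a label of day 23. Its sex, that label and the individual mouse cannot be told apart, also in the fits without it, so the part of sex was not tested.

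Of the 10 HSP70 genes, none passed even the unadjusted threshold, with 5 log2 fold changes above 0 and 5 below. *Hspa8*, which encodes the constitutive HSC70, had 9281, 8773 and 9725 in *Bmal1*-/- skin, against 9072, 9537 and 8955 in *Bmal1*+/- skin. The genotypes interleaved, and the log2 fold change was 0.010 with a 95% interval of -0.12 to 0.14. The other 2 probe sets named for this gene alone gave 0.014 and 0.019, and 2 that it shares with the small nucleolar RNA genes *Snord14c* and *Snord14d* gave -0.13 each. *Hspa1a*, the HSP70 gene with the strongest known response to heat, had 856, 1044 and 1088 in *Bmal1*-/- skin, against 938, 944 and 868 in *Bmal1*+/- skin. *Bmal1*-/- replicate 1 was the lowest of the 6 mice and the other 2 were the highest. Its log2 fold change was 0.11 (SE 0.090, interval -0.091 to 0.31), with 0.22 without *Bmal1*-/- replicate 1 and 0.045 without *Bmal1*-/- replicate 3. A probe set shared by *Hspa1a* and its near-identical copy *Hspa1b* gave 0.013. Such copies can cross-hybridise, so the *Hspa1a* value is uncertain.

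*Hspa1l*, a testis relative in the same cluster, had the widest HSP70 interval, at 208, 165 and 200.3 in *Bmal1*-/- skin, against 169, 306 and 217 in *Bmal1*+/- skin, a log2 fold change of -0.22 with an interval of -0.62 to 0.18. *Bmal1*+/- replicate 2 alone was high, and without it the log2 fold change was -0.011. Without *Bmal1*+/- replicate 1 the log2 fold change was -0.41. *Hspa5*, which encodes BiP of the endoplasmic reticulum, and *Hspa9*, the HSP70 of mitochondria, gave 0.0050 and 0.033. In HSP110, *Hsph1* gave 0.039, *Hspa4* gave -0.047, and *Hspa4l* gave -0.095 on the log2 scale. The *Hspa4* value was -0.11 without *Bmal1*-/- replicate 1 and -0.012 without *Bmal1*-/- replicate 2. *Hspa4l* had 762, 746 and 764 in *Bmal1*-/- skin, against 777, 826 and 828 in *Bmal1*+/- skin, which did not overlap, with an adjusted p of 0.68 in limma.

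*Hsp90aa1*, which encodes the stress-inducible HSP90 of the cytosol, had 4202, 3635 and 3422 in *Bmal1*-/- skin, against 3316, 3617 and 3432 in *Bmal1*+/- skin. The highest value belonged to *Bmal1*-/- replicate 1 and the others overlapped. The log2 fold change was 0.11 (SE 0.078, interval -0.060 to 0.29), with 0.031 without *Bmal1*-/- replicate 1 and 0.18 without *Bmal1*-/- replicate 3. All 3 probe sets named for the gene gave 0.11 to 0.14. *Hsp90b1*, the HSP90 of the endoplasmic reticulum, gave -0.0020 with an interval of -0.13 to 0.13. In the chaperonin, *Hspd1* (HSP60) gave 0.013 and *Hspe1* (HSP10) gave -0.060, although both share 1 promoter region. *Hspe1* had 1675, 1627 and 1716 in *Bmal1*-/- skin, against 1729.6, 1731 and 1771 in *Bmal1*+/- skin. These groups did not overlap, with an adjusted p of 0.78 in limma. A second probe set of *Hspe1* gave -0.058, with overlap.

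**Figure D3:**
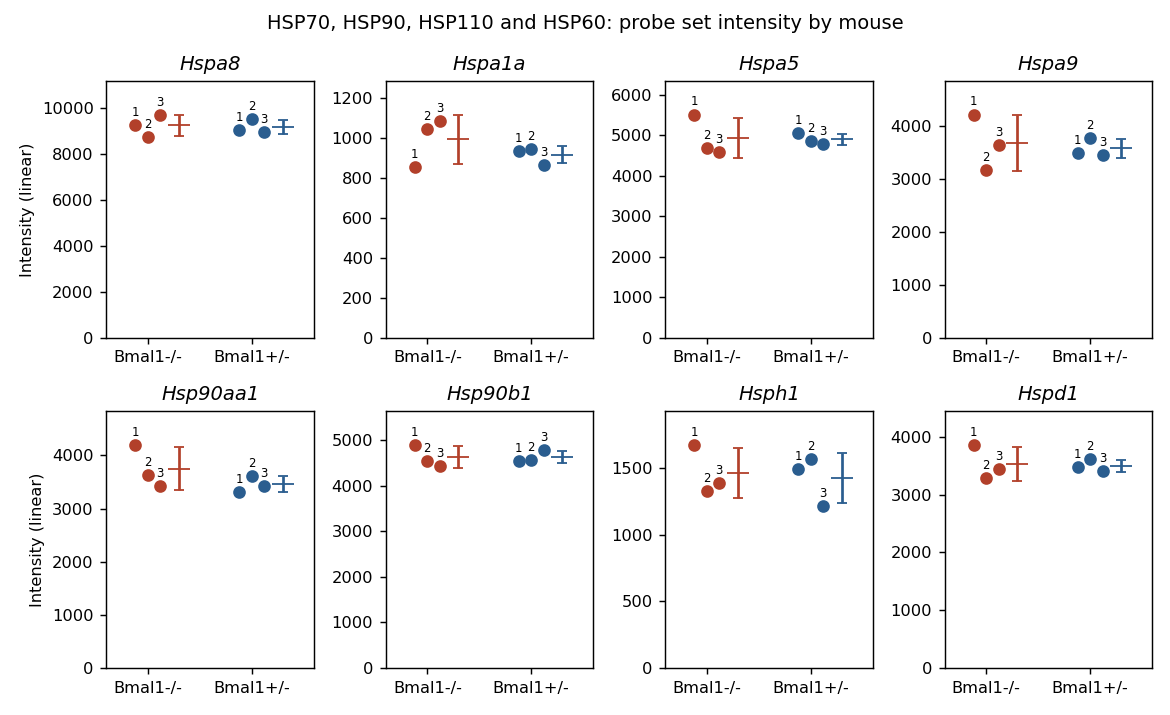
Probe set intensity (linear scale) of 8 genes of HSP70, HSP90, HSP110 and HSP60 in each mouse, with *Bmal1*-/- left of *Bmal1*+/-, numbers giving the replicate, and the mean and SD beside the points (n = 3 each). The genotypes overlap in every panel, and *Bmal1*-/- replicate 1 is the highest mouse for *Hspa5*, *Hspa9*, *Hsp90aa1*, *Hsp90b1*, *Hsph1* and *Hspd1*.

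J-domain proteins are the largest group, with 4 genes of class A, 13 of class B and 28 of class C, and none was called. *Dnajc10*, an oxidoreductase of the endoplasmic reticulum that opens disulfide bonds, was the only one past an unadjusted p of 0.05. It had 1325, 1261 and 1255 in *Bmal1*-/- skin, against 1496, 1335 and 1439 in *Bmal1*+/- skin. All 3 *Bmal1*-/- mice lay below all 3 *Bmal1*+/- mice, by a narrow gap. The log2 fold change was -0.15 (SE 0.062, interval -0.29 to -0.010), with an adjusted p of 0.53 in limma. *Dnajc6*, which encodes the clathrin uncoating factor auxilin, had 159.9, 169 and 181 in *Bmal1*-/- skin, against 198, 188 and 201 in *Bmal1*+/- skin, a log2 fold change of -0.19 (adjusted p 0.57 in limma). The groups did not overlap here either.

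In class A, *Dnaja1*, a cytosolic HSP70 partner, had 2932, 3080.5 and 2984 in *Bmal1*-/- skin, against 2867, 2916 and 2783 in *Bmal1*+/- skin, a log2 fold change of 0.070. A second probe set of *Dnaja1* gave 0.016, with overlap. Its paralog *Dnaja2* had 2016, 1964 and 2043 in *Bmal1*-/- skin, against 2116, 2187 and 2085 in *Bmal1*+/- skin, a log2 fold change of -0.084. Neither of these overlapped between genotypes, in opposite directions, and the adjusted p was 0.73 for *Dnaja1* and 0.68 for *Dnaja2* in limma. In class B, *Dnajb1* (HSP40), which is induced by heat with HSP70, gave 0.071 and *Dnajb4* gave 0.045. *Dnajb11*, a BiP partner, gave -0.069, with -0.13 without *Bmal1*-/- replicate 1 and -0.020 without *Bmal1*-/- replicate 3. The widest class B values came from *Dnajb7* (-0.24) and *Dnajb8* (0.20), both known from testis, with intervals that held 0.

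*Dnajb6*, which keeps polyglutamine proteins and keratin from aggregating, is covered by 1 probe set of its own and 4 that it shares with a predicted gene. These 5 probe sets gave log2 fold changes of -0.11 to -0.087, and none was called. *Dnajc13*, an endosomal protein, is covered by 15 probe sets, of which 12 gave a value below 0 and 3 above, between -0.13 and 0.079. Their correlation over the 6 mice ran between -0.57 and 0.95, so the probe sets of this gene disagreed. *Dnajc3*, an inhibitor of the kinase PERK, gave -0.022 on both of its probe sets, which hold identical values and count once.

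No heat shock factor was called. *Hsf2*, active in development and alongside HSF1, had 782, 874 and 957 in *Bmal1*-/- skin, against 844, 850.4 and 839.9 in *Bmal1*+/- skin. The *Bmal1*-/- mice spread on both sides of the *Bmal1*+/- mice, and the log2 fold change was 0.038 (interval -0.13 to 0.21). *Hsf4*, known from the lens, had 234, 215 and 231 in *Bmal1*-/- skin, against 162, 202 and 217 in *Bmal1*+/- skin. Its log2 fold change was 0.22 (adjusted p 0.61 in limma). It was 0.11 without *Bmal1*+/- replicate 1, the male, and 0.30 without *Bmal1*+/- replicate 3. *Hsf5*, known from testis, gave -0.0012, and *Hsf2bp*, which encodes a binding protein of HSF2 and not a factor, gave -0.097. *Hsf3* lay between 5.40 and 10.8 in all 6 mice, under the added offset of 16, and its log2 fold change of 0.15 is not interpretable as a level.

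No gene of the wider chaperone lists was called either. In the heat-inducible list, 19 of 21 genes were measured, and the median log2 fold change was 0.018, against 0.014 over all probe sets. Past an unadjusted p of 0.05 were *Hspb1* (0.34) and *Serpinh1* (-0.37, adjusted p 0.45 in limma), which encodes the collagen chaperone HSP47. Of 21 genes of the endoplasmic reticulum and its unfolded protein response, all measured, 16 had a log2 fold change below 0, none was called, and the median was -0.061. The share of all probe sets below 0 was 45.3%. Of the 6 fibroblast markers, 5 were below 0 as well (median -0.14, none called, summed intensities 61786 to 69150.2 in *Bmal1*-/- skin and 67071 to 74248 in *Bmal1*+/- skin). All 6 leukocyte markers were below 0 (median -0.13, none called, sums 5876 to 7652 in *Bmal1*-/- skin and 7509.9 to 7878 in *Bmal1*+/- skin). No marker of either kind was at 0, and their part in the values of this list and of *Serpinh1* was not tested. Below 0 too were 6 of 7 keratinocyte, 4 of 5 smooth muscle and 8 of 12 striated muscle markers. Above 0 were 5 of 7 adipocyte, 4 of 4 endothelial and 2 of 2 measured red blood cell markers. *Herpud1*, which brings misfolded proteins to degradation, had 1707, 1672 and 1680.4 in *Bmal1*-/- skin, against 2146, 2188 and 2044 in *Bmal1*+/- skin. The groups lay well apart, and the log2 fold change was -0.33 with an adjusted p of 0.053 in limma. In the same list *Xbp1* and *Atf4*, factors of that response, gave 0.032 and 0.029, and *Ddit3* gave -0.16 (adjusted p 0.69 in limma).

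Of 12 mitochondrial chaperones and proteases, 10 had a log2 fold change above 0, against 12811 of all 23410 probe sets. The median of the 12 was 0.033 and none was called. Past an unadjusted p of 0.05 in limma were 2 (16.7%, against 8.77% of all probe sets). The genotypes did not overlap in 4 (33.3%, against 14.7% of all), with 3 higher and 1 lower. *Clpx*, the unfoldase of the ClpXP protease, had 1389, 1504 and 1799 in *Bmal1*-/- skin, against 1128, 1315 and 1279 in *Bmal1*+/- skin, a log2 fold change of 0.33 (adjusted p 0.36 in limma). Its protease partner *Clpp* gave 0.17 (adjusted p 0.55 in limma). The 22 other cochaperones, such as the BAG proteins and HSP90 partners, had a median of -0.0064 and none past an unadjusted p of 0.05. The 8 subunits of the cytosolic chaperonin TRiC had a median of -0.013 and none called.

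**Figure D4:**
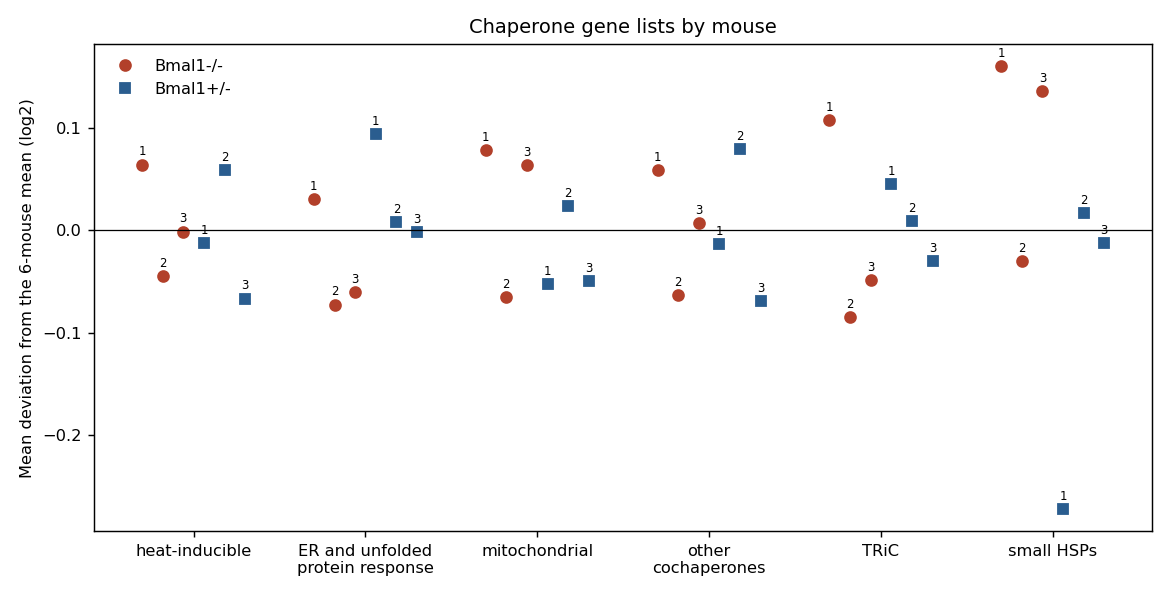
Mean deviation (log2) of 6 chaperone gene lists from the average of the 6 mice, with 1 point per mouse, circles for *Bmal1*-/- and squares for *Bmal1*+/-. The genotypes overlap in every list, and *Bmal1*+/- replicate 1 is lowest for the small heat shock proteins, at -0.27.

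The mice differed from each other across the classes. Of the 75 genes, 44, 21 and 47 were above their 6-mouse average in *Bmal1*-/- replicates 1 to 3, against 27, 41 and 33 in *Bmal1*+/- replicates 1 to 3. *Bmal1*-/- replicate 1 was the highest mouse for 21 genes and *Bmal1*-/- replicate 2 the lowest for 21, and the male *Bmal1*+/- mouse was lowest for 22. Mice of 1 genotype thus stood at both ends of the range.

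Motifs were searched on both strands of the 250 bases before each RefSeq start, for which 61 of the 75 genes had a promoter. The heat shock element of 3 units, GAANNTTC followed at once by NNGAA, was found for *Dnajb6*, *Hspd1* and *Hspe1*, 4.92% of the 61 genes, against 0.514% of all 27025 genes with a promoter. The pair GAANNTTC, which that element contains, was found for 10 genes (16.4%, against 7.73% of all). The pair TTCNNGAA, also contained in it, was found for 7 (11.5%, against 8.11% of all). *Hspd1* and *Hspe1* share the same run, so that run is counted for each of them in all of these shares. The 10 genes with GAANNTTC had log2 fold changes between -0.10 (*Dnajb6*) and 0.38 (*Hspb6*), with 7 above and 3 below 0 and a median of 0.040, and none was called. The 3 genes with the longer element, *Dnajb6*, *Hspe1* and *Hspd1*, gave -0.10, -0.060 and 0.013.

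The E-box CACGTG stood in the promoters of 7 of the 61 genes (11.5%, against 6.86% of all). *Hsph1* is shown as an example, because its window holds an E-box and a heat shock pair, both in capitals, at chr5:149636316-149636565 on the minus strand (GRCm38.p6, RefSeq).
Hsph1: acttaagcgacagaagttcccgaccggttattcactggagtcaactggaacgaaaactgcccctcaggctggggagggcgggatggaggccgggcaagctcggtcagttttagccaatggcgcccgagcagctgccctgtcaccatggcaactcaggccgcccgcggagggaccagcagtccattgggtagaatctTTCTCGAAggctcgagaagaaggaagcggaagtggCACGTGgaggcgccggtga
The pair TTCTCGAA lies at -54 to -47 and the E-box at -19 to -14. The window of another RefSeq start of *Hsph1*, at chr5:149636337-149636586, holds the pair but no E-box. The 7 genes were *Dnajb9*, *Dnajc1*, *Dnajc16*, *Hsf2*, *Hsf3*, *Hspd1* and *Hsph1*. Leaving out *Hsf3*, which lay under the offset, the other 6 had log2 fold changes between -0.047 and 0.070, with a median of 0.025, and none of the 7 was called. A match shows only that these letters stand in the window, and binding was not measured.

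With 3 mice against 3, an exact permutation test of a single gene cannot give a two-sided p below 0.1. The interval of the fold change lay inside a 1.25-fold change in either direction for 54 of the 75 genes. For the other genes a change past 1.25-fold was not excluded with 3 mice per genotype. Among these, the intervals of *Hspb7*, *Hspa1l*, *Dnajb7*, *Hsf4* and *Hspb9*, for example, hold both 0 and changes past 1.25-fold. Such intervals cannot decide between no change and a change of that size.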

How the data were processed

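Skin RNA of each of the 6 mice (3 *Bmal1*-/-, 3 *Bmal1*+/-) was hybridised to its own array, and genotype, replicate number and sex were taken from the sample labels. The authors deposited linear intensity values, 1 per probe set and array. The submitters' processing notes name Affymetrix Expression Console 1.1 and PLIER 2.0, and the steps of background correction, normalization and probe mapping were not given in the sources used. After an offset of 16 and a log2 transformation, the values were tested in R 4.3.3 with limma 3.58.1, using lmFit and eBayes(trend = TRUE), two-sided, over 23410 probe sets with at least 1 gene symbol.

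The members, the gene lists and the tests were chosen with earlier results of these data known. The named genes were members past an unadjusted p of 0.05, the 2 brightest and the 2 most different genes of each class, the heat-inducible members and all Hsf genes. Other genes were named after their values had been seen. The alternatives changed the offset, the scaling, the filter on mean intensity (at least 64), the choice of rows, the intensity trend, the test itself (a Cyber-T type test, window 101, prior weight 10), a block for replicate number or a sex term, or left out 1 mouse. The fits were tested on simulated data. Promoters are RefSeq windows (GRCm38.p6), searched in Python 3.11.15, and figures were drawn with matplotlib 3.10.9. The intensities carry no counts, so the number of mice limits the precision. Each array is a separate mouse.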

Additional observations from a re-analysis of the deposited data

How the results depend on the processing

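Of 31 named results, 19 kept their sign in every one of the 16 settings that gave them a value. Not every setting could change a sign. The intensity filter, testing all rows, dropping the intensity trend, the Cyber-T type test and the replicate block leave the log2 fold change as it is. The sex term gives the same log2 fold change as leaving out the only male. *Hspb1* alone crossed the adjusted threshold, with the Cyber-T type test (adjusted p 0.028). That test called 1 member, higher, and 96 probe sets higher and 177 lower over the whole table. Testing all rows called 15 higher and 19 lower, and a fit without the intensity trend 11 higher and 16 lower, with no member. At an unadjusted p under 0.05, 3 members were higher and 1 lower, beside 976 and 1078 of all probe sets, and under 0.001, 2 members were higher, beside 59 higher and 93 lower of all. The replicate block could not be tied to shared animals. The deviations from each genotype's mean, over all probe sets tested, correlated between same-numbered mice at 0.078, -0.35 and 0.056. With the replicate block, 20 probe sets were called higher and 34 lower, no member was called, and *Hspb1* had an adjusted p of 0.20.

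Leaving out 1 mouse at a time gave 13 to 23 higher and 22 to 34 lower calls over the whole table, with the smallest higher count of 13 without *Bmal1*-/- replicate 3, and 0 members called. The median of the 98 members with 1 gene symbol, 0.0094 with all mice, ran between -0.015 and 0.027. These log2 fold changes crossed 0: *Dnajb1* (-0.0064 to 0.14), *Dnajb4* (-0.015 to 0.095), *Dnajc13* (-0.070 to 0.019), *Dnajc3* (-0.061 to 0.010), *Hsf2* (-0.031 to 0.11), *Hsf2bp* (-0.20 to 0.016), *Hsf5* (-0.045 to 0.074), *Hsp90b1* (-0.044 to 0.028), *Hspa5* (-0.077 to 0.053), *Hspa8* (-0.026 to 0.049), *Hspd1* (-0.054 to 0.064) and *Hsph1* (-0.071 to 0.11). Leaving out 1 mouse also moved *Dnajb7* between -0.35 and -0.16 and *Hsf3* between 0.092 and 0.22, without a change of sign. With the sex term, *Dnajc13* was at 0.019 and *Dnajc3* at 0.010. Quantile normalization gave *Hsp90b1* 0.019, and scaling to a common median gave *Hspa5* -0.0014. The cause was not tested. The filter on mean intensity left out *Hsf3* and *Dnajb7* among the named genes.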
